A study of Sus scrofa with 18 samples.

Results

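The 30 probe sets examined here measure HOX genes in gastrocnemius muscle, the large calf muscle of the hindlimb, of 18 young pigs. They are all probe sets of the array whose annotation gives 1 gene symbol that starts with HOX, a cluster letter from A to D and a paralog number, and they were taken from 25388 probe sets in all, 13327 of which carry 1 gene symbol. They stand for 28 genes, since HOXC13 and HOXD10 each have 2 probe sets. Some HOX genes of mammals have no probe set under their own symbol, among them HOXB4, HOXB9, HOXC6, HOXC8, HOXC9, HOXC10, HOXC11, HOXD4 and HOXD9, so the middle of the HOXC cluster was not analysed here. The HOXA cluster has 9 probe sets, HOXB 8, HOXC 5 and HOXD 8.

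The pigs were male crossbreds of Piétrain boars with German Landrace × German Edelschwein sows, 5 weeks old at the start of the feeding trial, and 6 pigs picked at random from each of its 3 groups were profiled. Group CON received a diet without insect meal, while the diets of groups IM5 and IM10 contained 5% and 10% meal of Tenebrio molitor larvae (the yellow mealworm) in place of 50% and 100% of the soybean extraction meal. Cellulose was added to the IM5 and IM10 diets only, and the amounts of plant oils and single amino acids also differed. A difference between groups is therefore one between whole diets. The diets were fed for 4 weeks, and muscle was taken after slaughter on day 29. The comparison asked whether the insect meal altered the muscle transcriptome, and here it asks whether HOX transcript levels differed between diets or between pigs.

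HOX genes encode homeodomain transcription factors that lie in 4 clusters, and their order along each cluster mirrors the order of the body segments in which they are active in the embryo. In the limb bud the paralogs with high numbers act along the long axis: in mice, groups 9 and 10 are needed for the thigh or upper arm, group 11 for the lower leg or forearm and group 13 for the foot or hand. Adult fibroblasts and muscle stem cells of mammals keep part of this pattern as a record of where in the body they arose.

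All values are log2 RMA signals, that is, probe intensities after background correction, quantile normalization and summarization, so a difference of 1 is a doubling. The arrays were alike in overall brightness, with a median signal between 4.91 and 5.00. The signal of a probe set depends on its own probes as well as on the transcript, so each level is given by its place on the array and no order of transcript amounts between genes follows from it. A probe set was counted as dim where its mean over the 18 pigs lay among the lowest 30% of the array, below 3.95. The fibre markers checked the tissue: 9 of 16 had a probe set, and all 9 were above that limit, with a median level of 12.5.

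The brightest HOX signals came from the central and posterior HOXA genes. HOXA7 (gene ID 100519456), whose paralog group patterns the trunk, had a mean of 7.19, and 87.8% of all probe sets were dimmer. HOXA10, a gene of the thigh segment in mice that also acts in the uterus, followed at 7.02 (percentile 86.2), HOXA9, known for its role in blood stem cells, at 6.83 (84.0) and HOXA4 at 6.34 (77.4). HOXA10 is annotated under 2 gene records that share the symbol. HOXA5, needed for the lung and the neck region in mice, was at 5.54, above the median of all probe sets of 4.95. HOXA3 was at 5.18, HOXA2, a gene of the hindbrain and the pharyngeal arches, at 4.21 and HOXA13, the gene of the digits, at 4.06. The HOXA11 probe set was the lowest of all 30 at 2.99 (percentile 16.4), in the dim part of the array, where a signal may hold no more than background. HOXA11 belongs to the paralog group of the lower leg, the segment in which this muscle lies.

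In HOXA7, the values of the 6 pigs ran from 6.99 over a median of 7.19 to 7.45 in group CON, from 6.75 over 7.20 to 7.53 in group IM5 and from 6.88 over 7.26 to 7.52 in group IM10. The groups overlapped over nearly their whole range. HOXA7, HOXA9, HOXA10 and HOXA4 were the 4 brightest members in 16 of 18 pigs, and with HOXD8 they were the 5 brightest in 17 of 18.

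The HOXB genes lay lower, with a median over the 8 probe sets of 4.50. HOXB2 (gene ID 100521989), a hindbrain gene, was the brightest at 5.37 (percentile 59.3), and HOXB6, which is active in the hindlimb bud of mice, followed at 5.29 (57.5). HOXB2 values ran from 5.09 over a median of 5.50 to 5.55 in group CON, from 5.07 over 5.35 to 5.74 in group IM5 and from 5.15 over 5.28 to 5.51 in group IM10, with full overlap. HOXB3 was at 4.81, HOXB1, a gene of the hindbrain, at 4.62, HOXB8 at 4.37 and HOXB5 at 4.09. HOXB13, a gene of the tail bud and the prostate, at 3.84 and HOXB7 at 3.67 were dim.

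HOXC had the lowest median of the 4 clusters, 3.75 over 5 probe sets, and 1 of these was above the limit for dim signals. That was the brighter of 2 probe sets for HOXC13 (gene ID 100518969), a gene of hair follicles and nails, at 4.65 (percentile 43.1). In it the pigs ran from 4.37 over a median of 4.69 to 4.82 in group CON, from 4.27 over 4.72 to 4.87 in group IM5 and from 4.30 over 4.56 to 5.02 in group IM10, and the groups overlapped. The other HOXC13 probe set was at 3.75, HOXC4 at 3.83, HOXC5 at 3.54 and HOXC12 at 3.27.

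Of the HOXD genes, HOXD8 (gene ID 100515172) was the brightest at 5.97 (percentile 71.0) and HOXD3, a gene of the neck vertebrae in mice, followed at 5.30 (57.6). The probe sets for HOXD10, a thigh segment gene in mice, were at 4.70 and 4.51, and the latter is annotated under a gene record that is not in the current gene table. HOXD11 was at 4.44 and HOXD1 at 4.34, while HOXD12 at 3.66 and HOXD13, the partner of HOXA13 in the digits, at 3.32 were dim. The annotated records of HOXA3 with HOXA4 and HOXA5, and of HOXD9 with HOXD10 and HOXD11, overlap each other in the RefSeq annotation, so signals of these genes may be shared.

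By paralog number, 7 of 7 anterior probe sets (groups 1 to 3), 7 of 10 central ones (groups 4 to 8) and 7 of 13 posterior ones (groups 9 to 13) were above the limit for dim signals. The median levels were 4.81, 4.83 and 4.06. Both probe sets of group 12 and 3 of 5 of group 13 were dim, whereas group 9, represented by HOXA9, was among the brightest. In group 13, HOXA13 was above the limit through 1 pig of group IM5, replicate 6. Its mean over the other pigs was 3.94, just below the limit, and without that pig 20 of the 30 probe sets were above it. Over all 30 probe sets the median was 4.47 against 4.95 for all probe sets of the array. Of the 30, 21 were above the limit for dim signals and 10 above the median of the array.

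**Figure D1:**
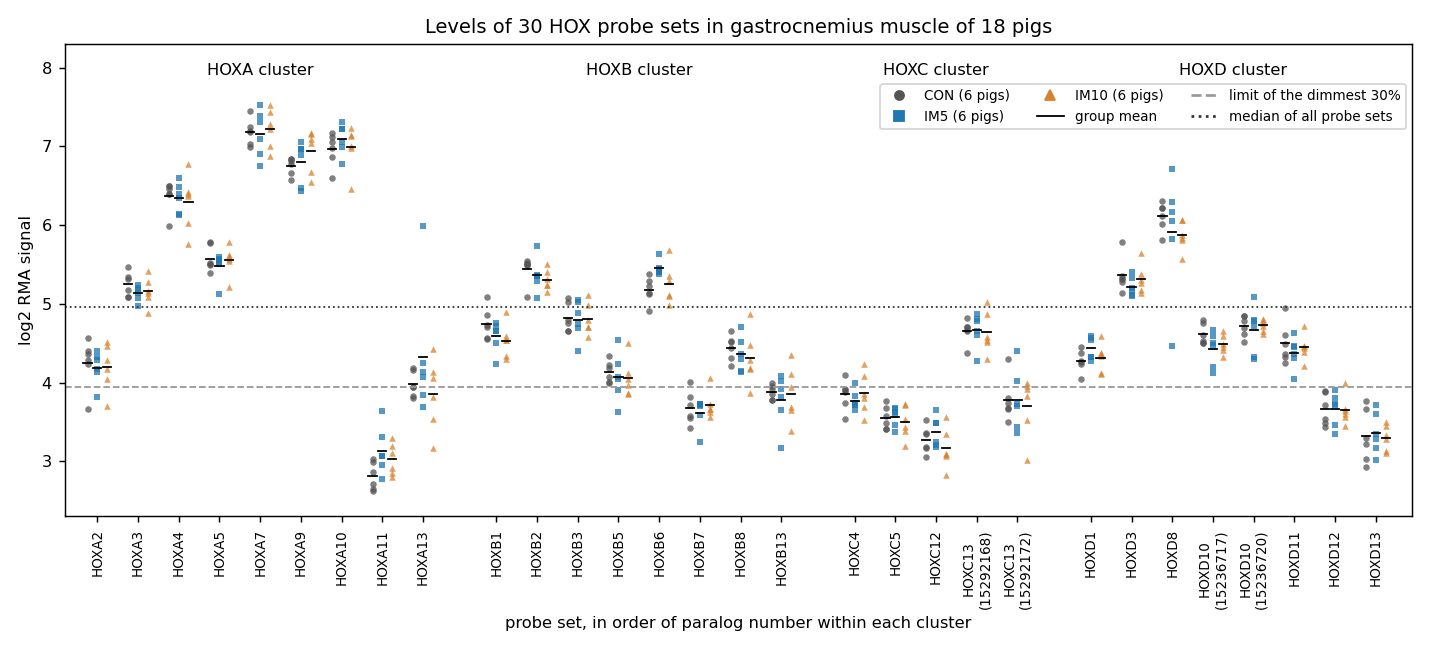
Log2 RMA signal (vertical axis) of the 30 HOX probe sets, in order of paralog number within each cluster (horizontal axis), where each point is a pig and short lines are group means of 6 pigs. HOXA4, HOXA7, HOXA9 and HOXA10 stand highest, with means between 6.34 and 7.19, and the groups overlap in each of these 4; HOXA13 and HOXD8 each have a pig of group IM5 far from the rest.

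The limb selector genes gave no independent check of the hindlimb origin. PITX1 and TBX4, which specify the hindlimb, have no probe set under their own symbol. ISL1, which starts hindlimb outgrowth in mice, was dim, with values from 2.70 over a median of 2.83 to 3.27 in group CON, from 2.67 over 2.87 to 3.01 in group IM5 and from 2.65 over 2.72 to 2.76 in group IM10. TBX5, the forelimb selector, had a mean of 4.03, just above the limit for dim signals. Its values ran from 3.89 over 4.09 to 4.22 in group CON, from 3.69 over 3.89 to 4.17 in group IM5 and from 4.02 over 4.11 to 4.36 in group IM10. The study also profiled liver, which was not analysed here, so the data used here show which HOX transcripts gave a signal in this hindlimb muscle but not which of them mark the hindlimb.

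HOX signals were compared between pigs over the whole family. Of the variance among the values of the 30 probe sets, 95.5% lay between probe sets, 0.387% between diets and 4.09% between pigs of the same diet. The mean square between diets within probe sets, 0.0445, was below that between pigs of the same diet, 0.0627. Over the 30 probe sets, the profiles of 2 pigs had a median Pearson correlation of 0.969 (153 pairs), and the median was 0.969 for the 45 pairs of the same diet and 0.969 for the 108 pairs of different diets. Probe sets differ in brightness in the same way on every array, so a high share between probe sets and high correlations are to be found for any set of probe sets. Over all 25388 probe sets the median correlation was 0.986.

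Spread between pigs was not small for this array. The SD around the group means had a median of 0.210 over the 30 HOX probe sets and of 0.192 over all probe sets, and 22 of the 30 were above the latter. These were 3 of 7 anterior, 7 of 10 central and 12 of 13 posterior probe sets. Against the median of probe sets of the same level, 18 of the 30 were higher. The least variable member was HOXA3, with an SD of 0.148, and the most variable were HOXA13 (0.557) and HOXD8 (0.469). Among the bright HOXA genes the SD was 0.243 in HOXA7, 0.230 in HOXA9, 0.229 in HOXA10 and 0.256 in HOXA4, between 1.32 and 1.49 times the median of probe sets of the same level.

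**Figure D2:**
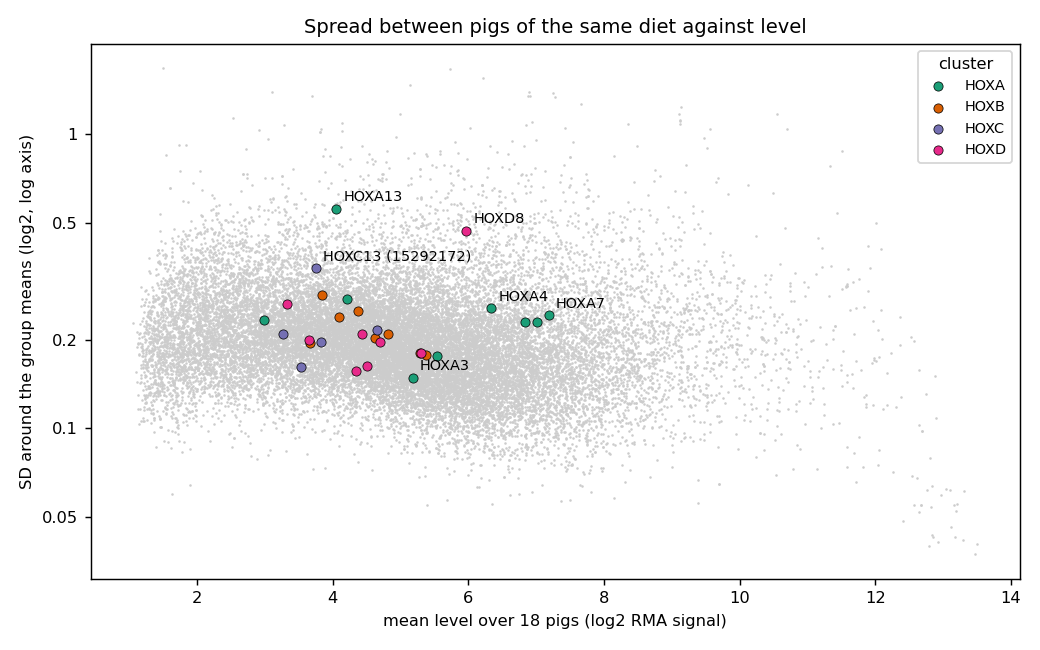
SD around the group means on a log axis (vertical) against the mean log2 RMA signal over 18 pigs (horizontal) for all 25388 probe sets (grey) and the 30 HOX probe sets (coloured by cluster). Most HOX genes lie in the dense part of the grey cloud, and HOXA13 (0.557) and HOXD8 (0.469) lie in its upper part, at percentiles 98.9 and 97.6 of all SDs.

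The spread of HOXA13 and that of HOXD8 came largely from the same animal. HOXA13 (gene ID 100359352) ran from 3.80 over a median of 3.94 to 4.19 in group CON, from 3.69 over 4.11 to 5.99 in group IM5 and from 3.17 over 3.94 to 4.42 in group IM10. HOXD8 ran from 5.81 over 6.17 to 6.30 in group CON, from 4.46 over 6.11 to 6.71 in group IM5 and from 5.57 over 5.86 to 6.06 in group IM10. The highest HOXA13 value and the lowest HOXD8 value both came from IM5 replicate 6, while the other 17 pigs lay between 3.17 and 4.42 in HOXA13 and between 5.57 and 6.71 in HOXD8.

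Without IM5 replicate 6 the SD was 0.311 in HOXA13 and 0.234 in HOXD8. The same pig also had the lowest values of HOXA7 (6.75, next pig 6.88), HOXB1 (4.24, next 4.30), HOXB5 (3.62, next 3.86) and 1 of the HOXD10 probe sets (4.30, next 4.33). With HOXD8 and HOXA13, it was lowest in 5 members and highest in 1. Such counts were not particular to it: IM5 replicate 5 was lowest in 7 members and IM10 replicate 6 was highest in 7. IM5 replicate 6 was the highest or lowest pig in 12.4% of all probe sets (5.61% to 16.3% in the other pigs). The mean correlation of its HOX profile with those of the other pigs was 0.869, the lowest of the 18, and 0.968 when HOXA13 and HOXD8 were left out. Over all probe sets its mean correlation with the other arrays was 0.983, and IM10 replicate 2 had the lowest at 0.981.

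Other transcripts moved with this animal. ZIC1, a patterning gene of the neural tube and the somites, was at 6.62 in IM5 replicate 6 and at most 4.02 in the other pigs. The mean of 10 probe sets for slow fibre genes was 11.07 in it and ran from 7.75 to 10.75 in the others, and 6 of the 10 were at their highest in this pig. The mean of 10 probe sets for fast fibre genes was 11.76 against 11.94 to 12.34, with 7 of 10 at their lowest. Tendon markers had a mean of 6.19 over 6 probe sets against 4.89 to 5.92 in the others, and 3 of 6 were at their highest. Fibroblast markers had a mean of 9.51 over 17 probe sets against 8.94 to 9.46, and adipocyte markers a mean of 5.17 over 4 probe sets against 5.53 to 6.50. The fibre and ZIC lists were chosen after values of this animal had been seen, and the part of fibre type, of other cell types or of the site from which the aliquot was cut in the HOXA13 and HOXD8 values was not tested. In whole muscle, fewer cells of a type and less RNA per cell cannot be told apart.

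**Figure D3:**
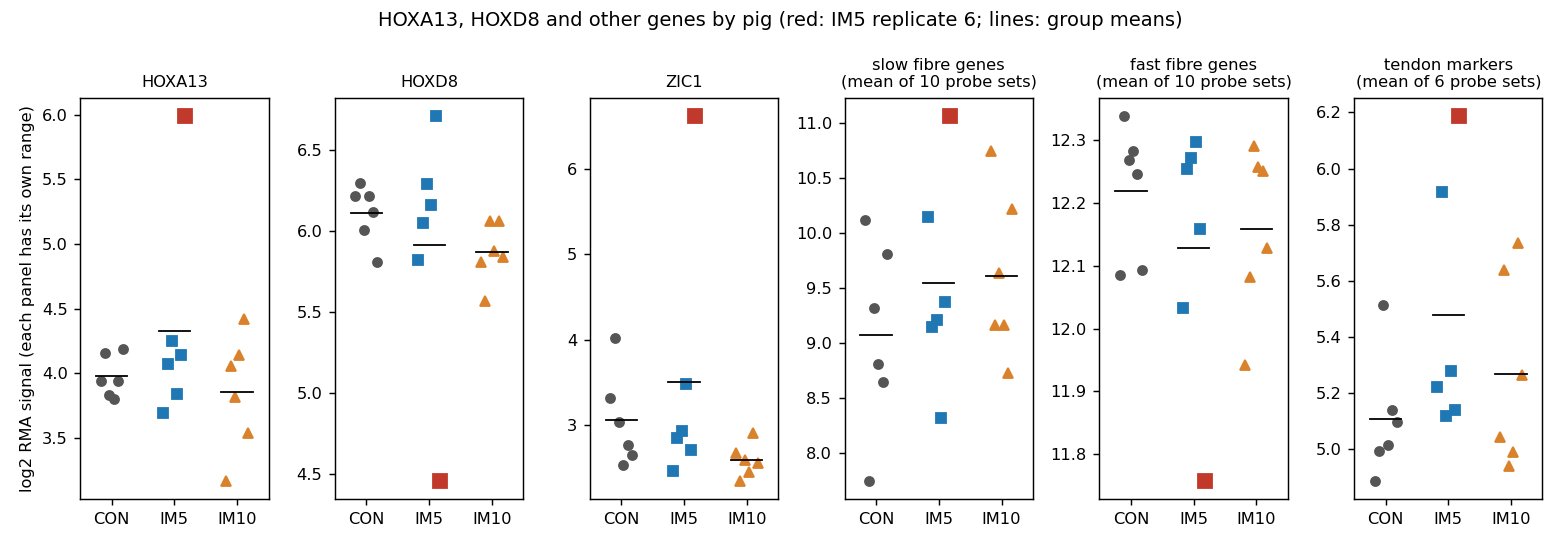
Log2 RMA signal (vertical axes, each with its own range) of HOXA13, HOXD8, ZIC1 and the means of 3 gene lists in the 6 pigs of each group (horizontal axes), with group means as lines. IM5 replicate 6, in red, has the highest HOXA13 (5.99), ZIC1 (6.62), slow fibre mean (11.07) and tendon mean (6.19) and the lowest HOXD8 (4.46) and fast fibre mean (11.76) of the 18 pigs.

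Around the group means, HOXD8 deviated together with the mean of the fast fibre genes, with a Pearson correlation of 0.75 over the 18 arrays and of 0.43 without IM5 replicate 6. For HOXA13 this correlation was -0.38 with that pig and 0.49 without it, so its direction rested on 1 animal. HOXA13 and HOXD8 had a correlation of -0.67 with it and of 0.26 without it. The named probe sets most like HOXD8 were PDK3 (r = 0.92), LINGO1 (0.90) and LDHA (0.90), the last encoding lactate dehydrogenase A, and the values without that pig were 0.73, 0.76 and 0.75. These points share the 18 arrays and their normalization.

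Among the members, the bright HOXA genes from HOXA7 to HOXA10 deviated together. HOXA7 and HOXA9 had a correlation of 0.83 around the group means (0.80 without IM5 replicate 6), HOXA7 and HOXA10 of 0.68 (0.61) and HOXA9 and HOXA10 of 0.65 (0.58). The probe sets at the end of the cluster did not follow them. HOXA11 had a correlation of -0.23 with HOXA9 and of -0.14 with HOXA10 (-0.17 and -0.068 without IM5 replicate 6). It was dim, so its signal may hold no more than background. HOXA13 had correlations of -0.35 and -0.49 with the same genes (-0.026 and -0.32 without IM5 replicate 6). HOXD12 and HOXD13, both dim, had a correlation of 0.72. Over all pairs the median was 0.19 for the 102 pairs within a cluster and 0.081 for the 333 pairs between clusters. The probe sets most like HOXA7 outside the family were AKT1S1 (0.89), SYNGR1 (0.89) and FITM2 (0.85).

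**Figure D4:**
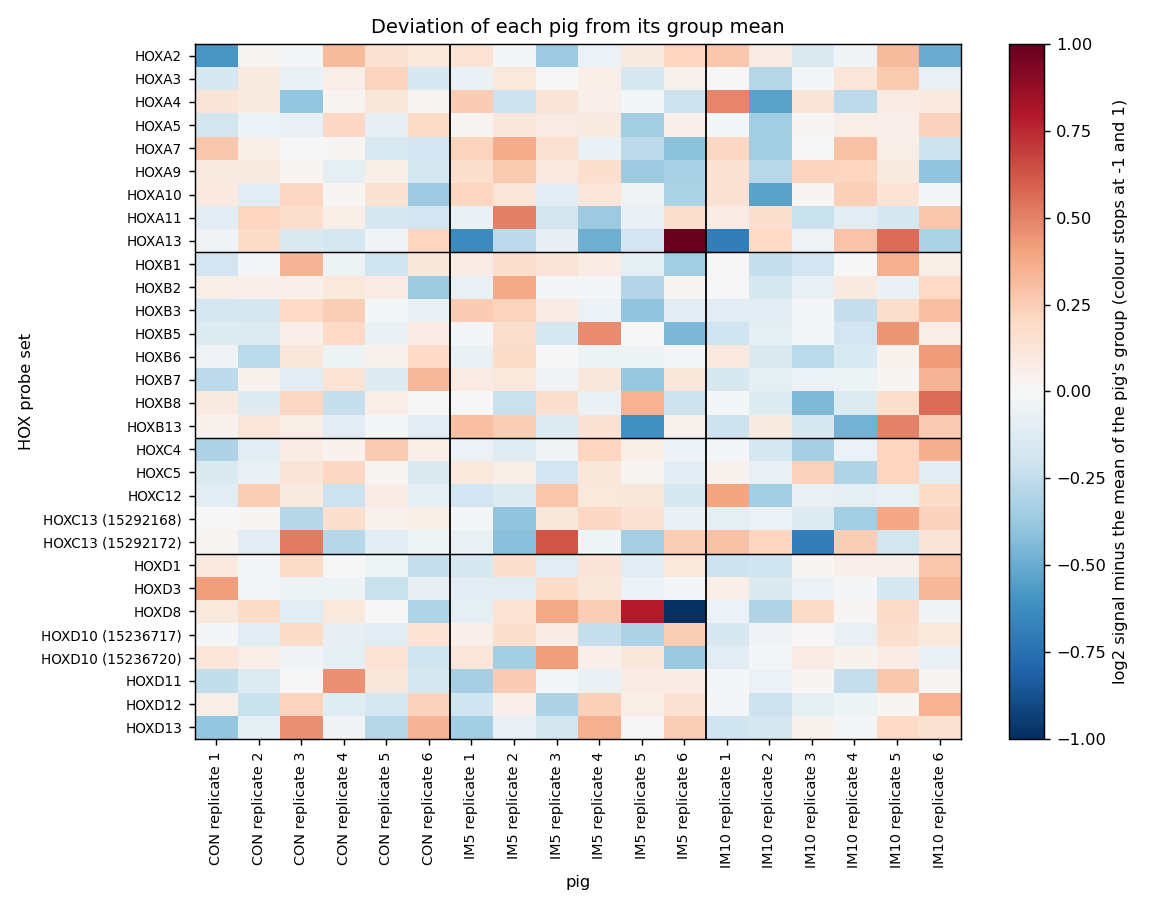
Deviation of each pig (columns, grouped by diet) from the mean of its group for each HOX probe set (rows, grouped by cluster), as a log2 difference in colour. Most cells are pale; the darkest are HOXA13 (red) and HOXD8 (blue) in IM5 replicate 6.

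Few HOX signals differed between the diets. In limma's test over all 25388 probe sets, called at an unadjusted P under 0.05 together with a fold change beyond 1.2, 0 of 30 HOX probe sets were called between IM10 and CON, where 2.29% of all probe sets were. None reached an unadjusted P under 0.05 in limma, and 1 did in the unpaired test of the methods, without passing the fold change. Between IM10 and IM5, 0 of 30 were called against 2.75% of all probe sets, and none reached an unadjusted P under 0.05 in either test. Between IM5 and CON, 2 of 30 were called, HOXA11 and HOXB6, against 2.1% of all probe sets, and the methods' test called the same 2 genes. After Benjamini-Hochberg adjustment over all probe sets no HOX gene passed 0.05 in any comparison. The share of members called there, 6.67%, was above the background share but rested on these 2 probe sets, 1 of them dim. The comparisons of IM5 and of IM10 with CON share the CON pigs.

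HOXB6 (gene ID 100627849) had values from 4.91 over a median of 5.18 to 5.38 in group CON, from 5.38 over 5.42 to 5.63 in group IM5 and from 4.98 over 5.20 to 5.68 in group IM10. The lowest pig of group IM5 equalled the highest pig of group CON, while group IM10 overlapped both. The change in group IM5 was 0.27 ± 0.10 (log2, SE, n = 6 per group; adjusted p of limma = 0.998), a 1.21-fold increase just beyond the threshold. In group IM10 it was 0.073 ± 0.10 relative to CON, and the difference of IM10 from IM5 was -0.20 (95% interval -0.42 to 0.020). The call of HOXB6 was lost without CON replicate 2 (0.22), without CON replicate 4 (0.26) or without IM5 replicate 2 (0.24).

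HOXA11 (gene ID 100521236) was dim in every pig, with values from 2.62 over a median of 2.79 to 3.03 in group CON, from 2.77 over 3.07 to 3.64 in group IM5 and from 2.80 over 3.01 to 3.30 in group IM10. The groups overlapped, and the highest value was that of IM5 replicate 2. The change in group IM5 was 0.32 ± 0.13 (log2, SE, n = 6 per group; adjusted p of limma = 0.998). It was 0.22 and no longer called without IM5 replicate 2, and in group IM10 the change was 0.21 ± 0.13 relative to CON. IM5 replicate 2 also had the highest HOXB6 value of its group (5.63) and a tendon marker mean of 5.92, second to IM5 replicate 6, and the part of these in either call was not tested.

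A P above the threshold does not show that a level was the same, so the 95% intervals were set against the 1.2-fold limit. Between IM10 and CON the whole interval lay inside 1.2-fold for 8 of 30 HOX probe sets, against 28.8% of all probe sets. Between IM5 and CON this held for 3 of 30 against 30.6%, and between IM10 and IM5 for 4 of 30 against 27.6%. HOXD12, a dim probe set, met the limit in all 3 comparisons, and 19 of 30 met it in none, HOXA4, HOXA7, HOXA9 and HOXA10 among them. The intervals reached a median of 0.24 on the log2 scale to each side, against 0.23 over all probe sets, so a change of 1.2-fold could rarely be set aside with 6 pigs a group. A change of 1.5-fold lay outside the interval of 28 HOX probe sets between IM10 and CON, of 27 between IM5 and CON and of 29 between IM10 and IM5. The widest reach was that of HOXA13, to 0.94 between IM5 and CON and to -1.06 between IM10 and IM5.

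The changes themselves ran from -0.24 (HOXD8) to 0.21 (HOXA11) between IM10 and CON and from -0.20 (HOXD8) to 0.35 (HOXA13) between IM5 and CON. Without IM5 replicate 6, the IM5 change was 0.021 in HOXA13 and 0.093 in HOXD8. The median change over the 30 members was -0.037 in IM10, where it was -0.0017 over all probe sets. In IM5 it was -0.0375, where it was 0 over all probe sets. Of the 30 changes, 9 and 10 were above 0, against 12508 and 12615 of all 25388 probe sets. The members share the arrays and the CON pigs, and these counts were not tested. Of the brightest genes, HOXA7 differed by 0.043 ± 0.13 in IM10 and -0.022 ± 0.13 in IM5 relative to CON, and HOXA10 by 0.027 ± 0.13 and 0.13 ± 0.13 (log2, SE, n = 6 per group). HOXA9 had the widest separation of these at 0.20 ± 0.13 in IM10. It was called up between IM10 and CON when IM10 replicate 6 was left out, and HOXB1 was called down there without IM10 replicate 5. In the comparison of IM10 with IM5, leaving out a pig gave 1 call in 4 cases, each downward: HOXA13 without IM5 replicate 1, HOXD8 without IM5 replicate 6, HOXC12 without IM10 replicate 1 and HOXB6 without IM10 replicate 6.

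**Figure D5:**
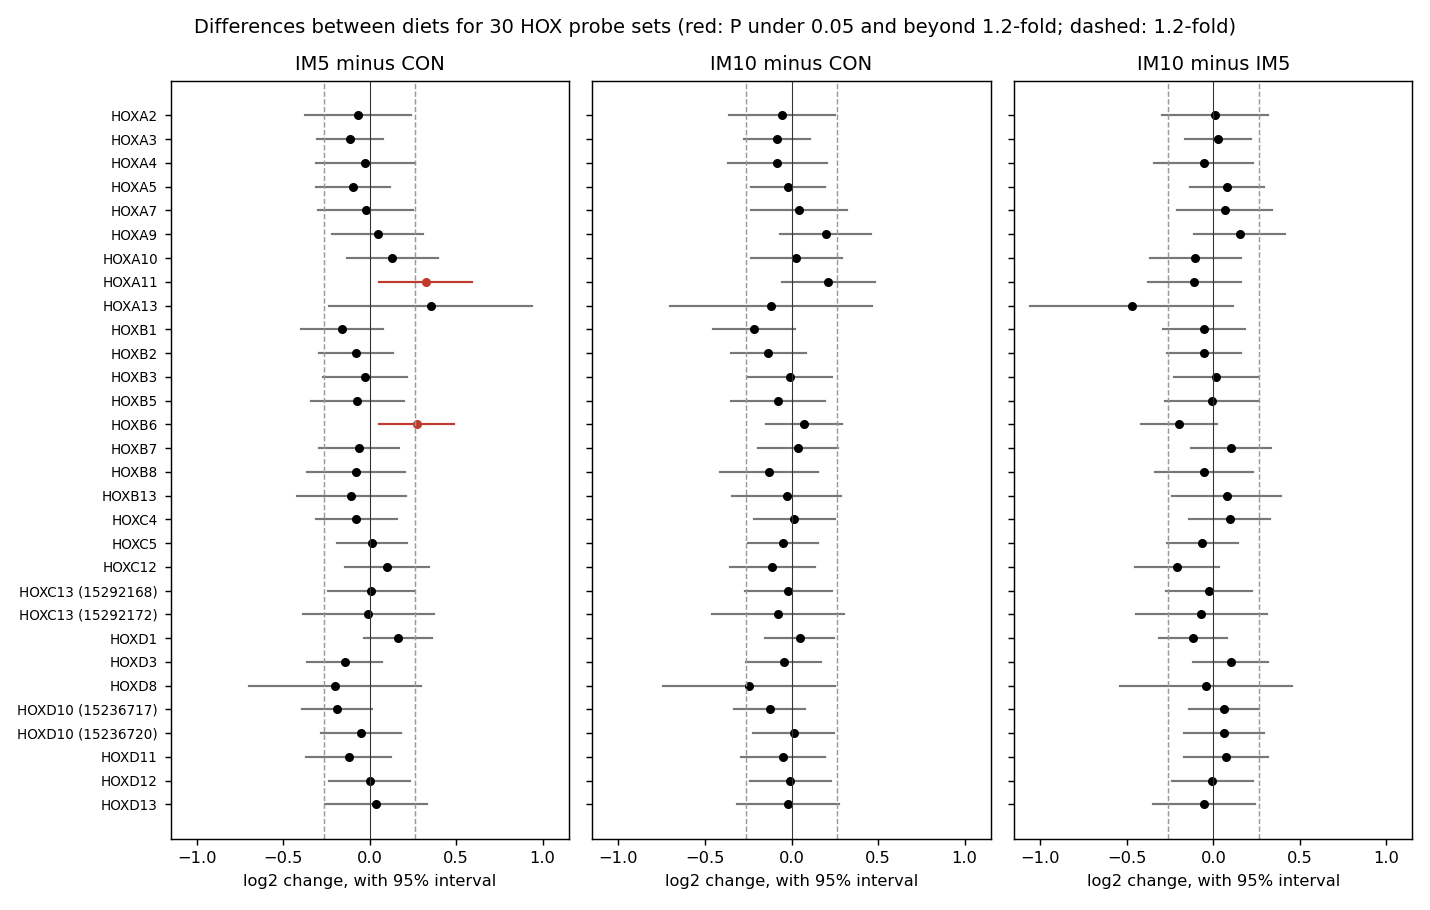
Log2 change with its 95% interval (horizontal axes) for each HOX probe set (vertical axis) between IM5 and CON, IM10 and CON, and IM10 and IM5, with dashed lines at 1.2-fold. The 2 red entries, HOXA11 (0.32) and HOXB6 (0.27) between IM5 and CON, are the called ones, and most other intervals cross a dashed line.

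Genes that work with or near HOX genes were read beside the shares of all probe sets called. These were 2.29% between IM10 and CON, 2.1% between IM5 and CON and 2.75% between IM10 and IM5. Transcripts of proteins that work with HOX factors were measured by 7 probe sets. The cofactors PBX and MEIS bind DNA together with HOX proteins. PBX3, at a mean level of 6.23, was called down in IM10 relative to CON (-0.49 ± 0.22, log2 and SE, adjusted p of limma = 0.991), and PKNOX2, a related homeodomain protein, was called down in IM10 relative to IM5 (-0.28, adjusted p = 0.931), while the other 5 were called in no comparison. Of 10 probe sets for retinoid and caudal genes that regulate HOX clusters in the embryo, the retinoid receptor RXRG was called down in IM10 (-0.57 ± 0.26, adjusted p = 0.991) and the retinoic acid binding protein CRABP2 up in IM5 (0.45 ± 0.21, adjusted p = 0.998), both relative to CON. CRABP2 ran from 4.05 to 5.34 in group CON and from 4.42 to 5.49 in group IM5. The value of 5.49, the highest of all pigs, was that of IM5 replicate 6, and its part in the call was not tested. Of 19 probe sets for Polycomb, trithorax and other chromatin regulators of HOX clusters, 0 were called by limma in any comparison, and 1 had an unadjusted P under 0.05, between IM10 and CON.

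Of 19 probe sets for genes next to the clusters, SKAP1, a dim neighbour of HOXB, was called up in IM10 relative to IM5 (0.36, adjusted p = 0.931). Of 21 probe sets for other limb patterning factors, TBX3 was called down in IM5 relative to CON (-0.36 ± 0.13, adjusted p = 0.998). The limb patterning gene TBX15, which is active in fast muscle fibres of mice, was at 9.62, brighter than 98.4% of all probe sets, and EYA1, a regulator of muscle progenitors and fast fibres in mice, was at 7.88. Of the probe sets for microRNA genes in the clusters, those of MIR10A (1.31) and MIR10B (1.56) were among the dimmest of the array, and that of MIR615 was at 4.11. How these signals relate to the amounts of the mature microRNAs was not tested. Of all probe sets, 2.1% were called between IM5 and CON and 2.75% between IM10 and IM5. None of these list counts was tested as a set.

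Some markers of other cell types were called. Of all probe sets, 2.29% were called between IM10 and CON, 2.1% between IM5 and CON and 2.75% between IM10 and IM5. Relative to CON, the Schwann cell marker CNP, 1 of 2 probe sets, was called down in IM10 (-0.35) and in IM5 (-0.30). The other Schwann cell marker, SOX10, was called in neither comparison. Its values ran from 4.96 to 5.4 in group CON, from 5.06 to 5.47 in group IM5 and from 4.87 to 5.42 in group IM10. The macrophage gene CD5L, 1 of 12 probe sets, was called up in IM10 relative to CON (0.30). Its values lay around the limit for dim signals, from 3.57 to 4.17 in group CON and from 3.91 to 4.38 in group IM10. Relative to IM5, the lymphocyte genes CD2 (0.48) and CD3E (0.36), 2 of 7 probe sets, were called up in IM10. The lowest CD2 value of all pigs, 3.63, was that of IM5 replicate 6, with 4.21 to 4.76 in the other pigs of group IM5. The lowest CD3E value, 4.45, was that of IM5 replicate 5. The part of these 2 pigs in the calls was not tested. Of 2 probe sets for the endothelial receptor KDR, the dim one (mean level 3.79) was called up in IM10 relative to IM5 and the bright one (7.42) was not, at the same difference of 0.30. The summed macrophage signal, a mean over 12 probe sets, ran from 5.54 to 6.31 in group CON, from 5.64 to 6.23 in group IM5 and from 5.59 to 7.16 in group IM10, with the highest value in IM10 replicate 2. In that pig the HOX members had the lowest median deviation of the 18, -0.14, and HOXA10 was at 6.46 against 6.98 to 7.23 in the other pigs of group IM10. The highest median deviations, 0.15 and 0.14, were those of IM10 replicates 5 and 6, and these arrays also had the highest lower quartile of all signals (3.72 and 3.70, against 3.57 to 3.69 in the others). The part of these array and cell type differences in the HOX values was not tested.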

How the data were processed

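RNA from gastrocnemius muscle of 18 pigs was hybridised by the authors to Affymetrix Porcine Gene 1.0 ST arrays, 1 pig per array. The deposited values are log2 RMA signals from Affymetrix Expression Console, whose version is not given in the sources used here, and were used as deposited. Probe sets were named through the platform's annotation table; 357 probe sets with several symbols were not named. A probe set under 2 records of 1 symbol was kept, and probe sets of a list with identical values on all arrays were counted once. All 18 arrays entered 1 limma fit (limma 3.58.1, R 4.3.3) of group means with empirical Bayes moderation. Following the methods' thresholds, a probe set was called at P under 0.05 where it also changed by over 1.2-fold, and Benjamini-Hochberg values were taken over all 25388 probe sets. The fit was tested on simulated data. Pigs shared pens that the labels do not give, so P values treat each pig as independent, and the number of arrays limits the precision. Full values were given for called members, the brightest member of each cluster, the 2 most variable members and the limb selectors, with up to 3 called genes from each other list and the 3 probe sets most like each cluster's brightest member. The members and lists were chosen with earlier results of these data known. No sequence was printed, since none was held in the tables used here.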

Additional observations from a re-analysis of the deposited data

Results flagged for a closer look

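A pig was marked where it was the highest or lowest of the 6 in its group and its gap to the nearest of the others, divided by the range of the group, was above Dixon's 95% critical value for 6 samples. Of 132 groups examined (44 probe sets in 3 groups), 14 were marked, where chance alone marks about 1 in 20, that is 6.6. Besides the 30 HOX members, the 44 probe sets were ISL1, TBX5, ZIC1 and list genes called in these data. ZIC1 was added after values of IM5 replicate 6 had been seen. The count of 14 can therefore not be set against chance. Of the 90 groups of HOX members, 10 were marked, beside the same 1 in 20, and these groups share the arrays.

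In IM5 replicate 6, HOXA13 was at 5.99 with the next pig of the group at 4.25, and ZIC1 was at 6.62 with the next at 3.48. In IM5 replicate 5, HOXA5 was at 5.13 (next 5.50) and HOXB7 at 3.24 (next 3.59). HOXB6 in IM5 replicate 2 was at 5.63 (next 5.45), and PKNOX2 in IM5 replicate 3 was at 6.74 (next 7.13).

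In group CON, replicate 3 had 3 marked values, namely HOXA4 at 5.99 (next 6.40), the brighter HOXC13 probe set at 4.37 (next 4.66) and CRABP2 at 5.34 (next 4.44). HOXD3 in CON replicate 1 was at 5.78 (next 5.35), while HOXB2 at 5.09 (next 5.49) and CD3E at 5.83 (next 5.24) were those of CON replicate 6. In group IM10, HOXA10 was at 6.46 in replicate 2 (next 6.98) and HOXB7 at 4.06 in replicate 6 (next 3.73).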

How the results depend on the processing

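Between IM10 and CON and between IM10 and IM5, 0 HOX probe sets were called under each alternative other than leaving out a pig, and with a pig left out the count was 0 to 1 in both. Between IM5 and CON it was 0 to 2 with a pig left out and 1 without the dimmest 30% of probe sets, which removes HOXA11. The number with an interval inside 1.2-fold between IM10 and CON was 5, in place of 8, by the methods' t-test, in a fit on the 2 groups alone and without the dimmest 30%. Between IM10 and IM5 it was 2, in place of 4, by the t-test and with the 2 groups alone, and between IM5 and CON it was 1, in place of 3, without the dimmest 30%. The filter on dim probe sets leaves 21 members. The dim HOXC4, HOXC5 and HOXD12 that it removes make up its drops between IM10 and CON and between IM5 and CON. HOXD12 was also among those counted between IM10 and IM5. With a pig left out these counts ran from 2 to 8, from 1 to 7 and from 1 to 4, and the cause of the shifts under the other settings was not tested. The number of members above the dim part of the array was 10 when the limit was set at 50%, and 20 to 21 with a pig left out. The median level ran from 4.46 to 4.49 and the median SD from 0.205 to 0.217 with a pig left out. The IM5 change of HOXA11 ran from 0.22 to 0.40, that of HOXB6 from 0.22 to 0.31, that of HOXA13 from 0.021 to 0.48 and that of HOXD8 from -0.36 to 0.093, the last without IM5 replicate 6, where its sign turned. Leaving HOXA10 out of the members and leaving out single pigs for HOXA13 and HOXD8 were chosen after seeing the data. No probe set with several symbols included a HOX gene, so that alternative gave no value.

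Whether the replicate numbers of the titles pair the pigs was not settled. Of 18 same-numbered pairs, 5 correlated above 0.1, with a range from -0.12 to 0.30. The highest were those of replicate 1 (0.22, 0.30 and 0.30) and that of CON with IM10 in replicate 6 (0.24). No pairs of different numbers were set beside them. With the replicate number as a block, 5 HOX probe sets had an interval inside 1.2-fold between IM10 and CON, and HOXA11 and HOXB6 were again the 2 called between IM5 and CON.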

Other observations

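The strongest opposite movement within the family was between HOXA2, a gene of the anterior end of HOXA, and HOXD3, of the anterior end of HOXD, with a correlation of -0.82 around the group means over the 18 arrays (-0.83 without IM5 replicate 6). The 3 pigs with the lowest HOXA2 values, CON replicate 1 (3.67), IM10 replicate 6 (3.70) and IM5 replicate 3 (3.82), were the pigs with the highest HOXD3 value of their group (5.78, 5.65 and 5.40). HOXA5 and HOXB7 moved together across clusters with a correlation of 0.83, and in both the lowest pig was IM5 replicate 5 (5.13 and 3.24) and the highest was IM10 replicate 6 (5.79 and 4.06). These pairs were picked as extremes of all pairs of members, and the points share the arrays and their normalization.

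The named probe sets most like HOXB2 were ZNF787 (r = 0.74), LOC100517700 (0.73) and MSANTD4 (0.71), and those most like the brighter HOXC13 probe set were WISP3 (0.82), SRP14 (0.80) and LRRC6 (0.79). The summed fibroblast signal, from cells that carry a HOX pattern in adult mammals, had a median correlation of -0.021 with the 30 members around the group means, and HOXD8 had the lowest (-0.62, and -0.56 without IM5 replicate 6). With the summed tendon signal the median was 0.13, the highest being the HOXD10 probe set without a current record (0.66), and without IM5 replicate 6 it was 0.22, the highest being HOXB13 (0.61). With the summed macrophage signal the median was -0.23 (-0.26 without that pig), and HOXA3 had the lowest value at -0.63 (-0.62).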
